A study of Bos taurus with 10 samples.

Results

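The expression of 7 genes of fat metabolism was followed in 2 bovine joint tissues by RNA sequencing. They were FASN (ENSBTAG00000015980), SCD (ENSBTAG00000045728), LPL (ENSBTAG00000012855), CD36 (ENSBTAG00000017866), FABP4 (ENSBTAG00000037526), ADIPOQ (ENSBTAG00000019813) and LEP (ENSBTAG00000014911). They were taken as a fixed list of 7 Ensembl identifiers out of the 23819 in the count tables, and all 7 had a row in every table. The gene symbols belong to that list. The tables themselves hold identifiers only.

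The samples were 5 libraries of articular cartilage, the smooth layer over the ends of bones in a joint, and 5 of acetabular labrum, the ring of fibrocartilage around the hip socket. All came from male cattle with no visible joint disease, and no treatment separated the groups. Every specimen of both tissues spent 2 days in a growth medium that held 1% insulin-transferrin-selenium supplement before its RNA was taken. The labels give neither the age of the animals nor the joint from which the cartilage came. They also do not say whether the libraries of a tissue came from separate animals, so the spread behind each p-value may be partly technical. The series asks which genes set the resting labrum apart from cartilage.

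Fat cells and other cells handle fatty acids in a shared set of steps. Fatty acid synthase, encoded by FASN, builds palmitate, and stearoyl-CoA desaturase, encoded by SCD, places a double bond in saturated fatty acyl chains. Lipoprotein lipase, encoded by LPL, frees fatty acids from circulating triglyceride at the vessel wall. CD36 is a membrane protein that takes up fatty acids and oxidised lipoproteins and is abundant in fat cells, macrophages and the endothelium of small vessels. FABP4 carries fatty acids within fat cells, macrophages and endothelium, and ADIPOQ and LEP encode adiponectin and leptin, hormones of the fat cell. In joints these hormones are best known from the fat pads and the synovium, whereas cartilage itself has no vessels.

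Total counts ran from 7910479 to 27043808 per library in cartilage and from 3958167 to 19179862 in labrum. Levels are given as CPM (counts per 1000000 counts) after TMM scaling, which corrects library totals for differences in composition. CPM is not corrected for gene length, and no gene lengths were used, so levels are compared between tissues and never between genes. Counting intervals and limits cover counting error only. In bulk tissue, fewer cells of a type and less RNA per cell cannot be told apart.

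Of the 7 genes, 5 passed the filter on low counts and were tested, while FABP4 and LEP did not pass. LPL, CD36 and ADIPOQ were higher in labrum, and 0 of the 5 were lower (quasi-likelihood test of edgeR, adjusted p under 0.05 by Benjamini-Hochberg over 12333 genes). Over all tested genes 31.4% were higher in labrum, 31.3% were lower and 62.7% changed in either direction. The 3 of 5 that changed are thus close to the share of all genes that changed, and all 3 were in the direction of labrum. The even split depends on scaling, since with library totals alone 41.8% of genes were higher (5154) and 21% lower (2588). The same 3 genes had all labrum libraries above all cartilage ones, as did 24.7% of all tested genes. The median log2 fold change of the 5 was 1.28, and that of all tested genes was 0 to 2 decimals (-0.00076). CD36 passed the filter only through its labrum level. The plot of levels by library shows all 7 genes.

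**Figure D1:**
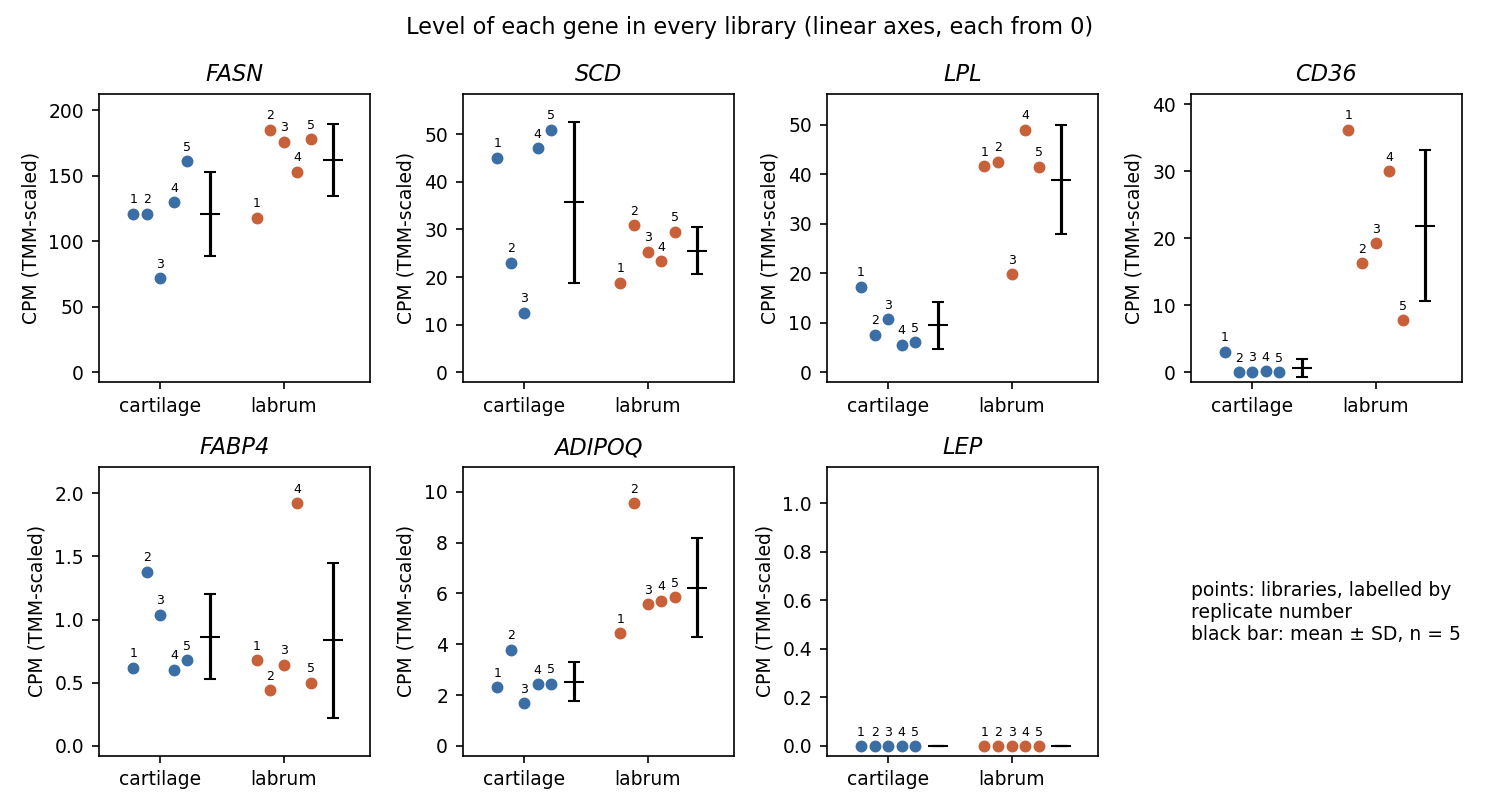
Level of each of the 7 genes in CPM (TMM-scaled, linear axes from 0) in the 5 cartilage and 5 labrum libraries; points are libraries with their replicate number, and black bars give mean ± SD (n = 5). LPL, CD36 and ADIPOQ do not overlap between tissues, FASN, SCD and FABP4 do, and LEP is at 0 in all 10 libraries.

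The 2 genes of fatty acid synthesis were expressed in every library of both tissues. FASN was measured at 121, 121, 71.7, 130 and 161 CPM in cartilage replicates 1 to 5, and at 118, 185, 176, 153 and 178 CPM in labrum replicates 1 to 5. Labrum replicates 1 and 4 lay within the cartilage range, and 3 of 5 labrum libraries lay above the highest cartilage library. The mean was 121 ± 31.9 CPM in cartilage and 162 ± 27.3 CPM in labrum (SD, n = 5 each). The log2 fold change was 0.42 (SE 0.19), with a 95% interval from 1.004-fold to 1.78-fold. It did not pass the adjusted threshold (edgeR unadjusted p = 0.0474, adjusted p = 0.072). Several choices moved FASN past the threshold. The adjusted p was 0.0394 with DESeq2, 0.0224 without cartilage replicate 5 and 0.031 without labrum replicate 1 (edgeR for both). With library totals alone the log2 fold change was 0.69 (edgeR adjusted p = 0.00474), while the median of all genes moved to 0.25, so the change of FASN relative to that median was about as large as with TMM.

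SCD was measured at 45.1, 23, 12.5, 47 and 50.9 CPM in cartilage and at 18.8, 30.9, 25.3, 23.3 and 29.5 CPM in labrum, both in replicate order. The cartilage libraries lay on both sides of all labrum libraries, with replicates 1, 4 and 5 above them and replicate 3 below. The mean was 35.7 ± 16.9 CPM in cartilage and 25.6 ± 4.88 CPM in labrum (SD, n = 5 each). The coefficient of variation of SCD was 47.5% in cartilage and 19.1% in labrum, beside medians over all tested genes of 17.8% and 15.7%. The difference in spread was not tested. The log2 fold change was -0.48 (SE 0.32) and did not pass the test (edgeR adjusted p = 0.213), with an interval from 0.438-fold to 1.17-fold. Without cartilage replicate 3, the lowest cartilage library, SCD was lower in labrum, with a log2 fold change of -0.70 (edgeR adjusted p = 0.0182). Without any other single library it did not pass.

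The genes of fatty acid uptake were both higher in labrum. LPL had 17.3, 7.62, 10.8, 5.59 and 6.13 CPM in the cartilage libraries and 41.7, 42.6, 19.9, 49 and 41.6 CPM in the labrum libraries. The tissues did not overlap. Labrum replicate 3, the shallowest library with 93 LPL counts, was the lowest of its tissue, and cartilage replicate 1 was the highest of its own. LPL was 4.15-fold higher in labrum, with a 95% interval from 2.55-fold to 6.75-fold (edgeR adjusted p = 0.000153, higher in 5 of 5 labrum libraries).

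CD36 had the largest difference of the 5 tested genes. Its counts in cartilage replicates 1 to 5 were 35, 1, 1, 1 and 0, and in labrum replicates 1 to 5 they were 319, 184, 90, 639 and 93. In CPM the labrum libraries ran from 7.78 in replicate 5 to 36.2 in replicate 1, a wide range within a tissue (coefficient of variation 51.4%). Cartilage was at 3.1 CPM in replicate 1 and at 0 to 0.151 CPM in the other 4 libraries. The mean was 21.9 ± 11.3 CPM in labrum and 0.688 ± 1.35 CPM in cartilage (SD, n = 5 each). The fitted log2 fold change was 5.05 (SE 0.88; edgeR adjusted p = 0.000368). Among all tested genes 2.94% were higher in labrum by at least as much.

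The size of the CD36 difference rested on cartilage replicate 1, which held 92.1% of the cartilage counts of the gene. Pooled over libraries and scaled by TMM, the labrum level was 38.2 times that of cartilage, from 1325 labrum and 38 cartilage counts (95% exact binomial interval 27.6 to 54.2). Without cartilage replicate 1 the ratio was 397, now with 3 cartilage counts and an interval from 136 to 1930, and the fitted log2 fold change was 8.31 (edgeR adjusted p = 3.38e-06). Without cartilage replicate 5, the deepest library and the one with 0 counts, the ratio was 24.9. The binomial intervals of the pooled ratios treat reads as independent and leave out the spread between libraries. The edgeR interval from 8.67-fold to 126-fold includes that spread and is much wider than 27.6 to 54.2. The direction and the call held without any one of the 10 libraries.

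**Figure D2:**
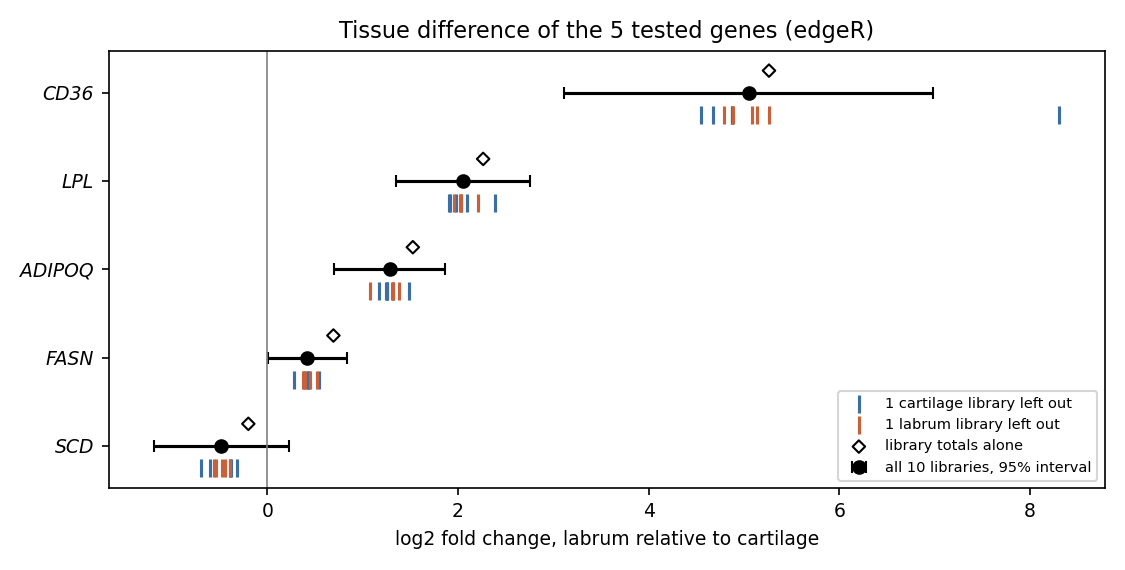
Log2 fold change of the 5 tested genes, labrum relative to cartilage (horizontal axis); black points and bars are the edgeR estimate with its 95% interval, short ticks the estimate with 1 library left out, and diamonds the estimate with library totals alone. CD36 reaches 8.31 without cartilage replicate 1, and the intervals of LPL, CD36 and ADIPOQ lie above 0. The unadjusted interval of FASN starts just above 0, at 0.006, although FASN did not pass the adjusted threshold.

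Cartilage replicate 1 was also the highest cartilage library for LPL, at 44.3% of the labrum mean, where the other 4 were at 14.4% to 27.7%. For each cartilage library, genes other than the 7 were taken that were at 1 CPM or more in each labrum library. The other 4 cartilage libraries held no more than 3 counts of each such gene in sum. In cartilage replicate 1 there were 227 such genes, 101 of them with a count, and their summed level was 0.261% of that in labrum. The same measure, with the set drawn anew for each library, was 0.0728% to 0.212% in the other cartilage libraries. In replicates 2 to 5, the genes with a count were 37 of 192, 25 of 191, 19 of 187 and 76 of 217. The sets are not alike. Their summed labrum level was 12100 CPM for replicate 1 and 2950 to 10900 CPM for the others. CD36 in cartilage replicate 1 stood at 14.1% of the labrum mean. CD36 was singled out because it was high there, so its percentage cannot be weighed against a sum over genes not chosen that way. A further 5 genes resembled CD36 in having at least 20 counts in cartilage replicate 1 and at most 3 over the other 4, and 3 of these also reached 1 CPM in every labrum library. The other cartilage libraries had 0 to 3 genes of the first kind and 0 of the second. This comparison was added after the CD36 values were seen, and the part of the library in the CD36 level was not tested.

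**Figure D3:**
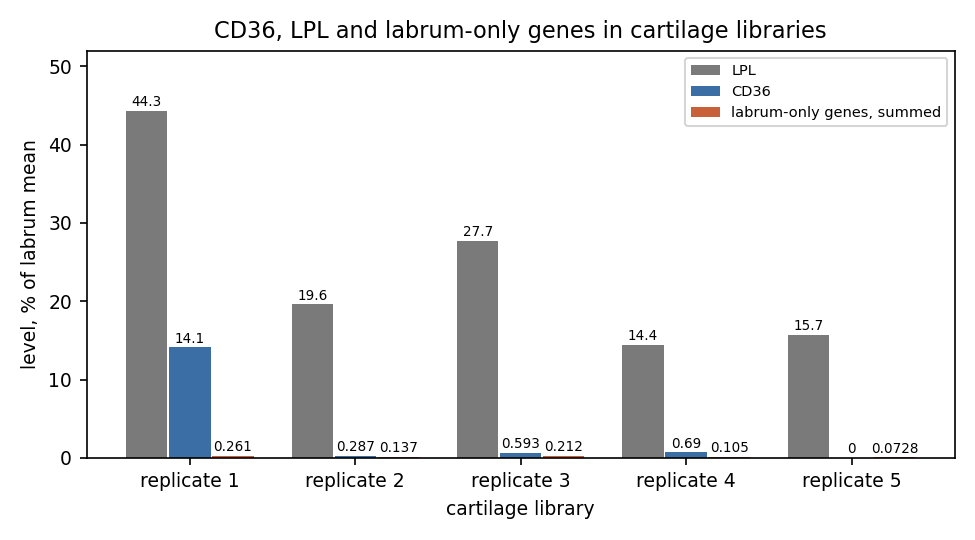
Level in each cartilage library as a percentage of the labrum mean (vertical axis, linear from 0) for LPL, CD36 and the summed labrum-only genes; the numbers above the bars are the percentages. Replicate 1 stands at 14.1% for CD36 and at 0.261% for the labrum-only genes. The set of labrum-only genes is drawn anew for each library, and CD36 was singled out for its level in replicate 1.

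FABP4, the fatty acid carrier, was near the limit of counting in both tissues. It had 7, 22, 8, 4 and 15 counts in the cartilage libraries and 6, 5, 3, 41 and 6 in the labrum libraries. Labrum replicate 4 alone held 41 of the 61 labrum counts, at 1.92 CPM (95% exact Poisson interval 1.38 to 2.61), while the other 4 labrum libraries were at 0.442 to 0.681 CPM. Cartilage ran from 0.604 to 1.38 CPM, so the tissues overlapped. The mean was 0.866 ± 0.34 CPM in cartilage and 0.838 ± 0.614 CPM in labrum (SD, n = 5 each), a log2 ratio of means of -0.05. Without labrum replicate 4 that ratio was -0.61. When only genes with 0 counts in all libraries were left out, the fitted log2 fold change was 0.02 (edgeR adjusted p = 0.974). Its interval ran from 0.505-fold to 2.04-fold, so changes of nearly 2-fold in either direction lie within it.

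The adipokine genes differed from each other. ADIPOQ was detected in all 10 libraries, with 13 to 60 counts in cartilage and 26 to 122 in labrum. Its level was 2.3, 3.78, 1.69, 2.42 and 2.45 CPM in the cartilage libraries and 4.43, 9.54, 5.58, 5.72 and 5.86 CPM in the labrum libraries. The tissues did not overlap, and replicate 2 was the highest library of each. ADIPOQ was 2.43-fold higher in labrum, with a 95% interval from 1.62-fold to 3.65-fold (edgeR adjusted p = 0.00125, higher in 5 of 5 labrum libraries). Without labrum replicate 2 the log2 fold change was 1.08, against 1.28 with all libraries, and it still passed the test.

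LEP had 0 counts in every library of both tissues. Taking 3 counts over the pooled libraries of a tissue as the limit, this allows a level of up to 0.0472 CPM in cartilage and 0.0517 CPM in labrum, with totals scaled by TMM. Of the 3 genes best known as products of fat cells, ADIPOQ was thus higher in labrum at a low level, FABP4 stayed at or under 1.92 CPM in all libraries, and LEP was at 0. Other defining genes of fat cells, endothelium or macrophages were not analysed here, because the identifiers could not be paired with names. The same holds for chondrocyte and fibroblast genes that would check the labelled tissues. A part of such cells in the differences of LPL, CD36 and ADIPOQ was not tested.

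Because the balance of tissues depends on scaling, the genes were also set against each other within each library, where scaling cancels. Gene length cancels only when such a ratio is compared between tissues. The ratios themselves thus do not rank the genes by level. All 10 pairs of the 5 genes with counts in every library were compared between tissues by an exact two-sided permutation test over 252 arrangements, with p-values adjusted over the 10 pairs. The smallest p that this design allows is 0.00794. In all, 7 pairs passed the adjusted threshold, and 3 of these had no overlap between tissues. Among all 69107646 pairs of the 11757 tested genes with counts in every library, 61.8% had an exact permutation p as low as the 7 (up to 0.0317, unadjusted), and 48.5% had no overlap. The pairs with FABP4, which did not pass the filter, have no counterpart in this background of tested genes. Both counts can therefore not be set strictly against these shares, and they say nothing particular about these genes. Each of the 7 lost its adjusted call without at least 1 of the 10 libraries. The test takes the libraries as unpaired. If equal replicate numbers mark paired samples, the smallest exact two-sided p over the 5 numbers is 0.0625, and no pair could pass.

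The balance of the 2 synthesis genes differed between tissues although neither gene passed the test alone. For each 100 FASN counts there were 37.2, 19, 17.4, 36 and 31.7 SCD counts in the cartilage libraries, and 15.9, 16.7, 14.4, 15.2 and 16.6 in the labrum libraries. All labrum libraries lay below all cartilage libraries, by a narrow gap to cartilage replicates 2 and 3. Among all pairs of tested genes with counts in every library, 48.5% likewise had no overlap between tissues. The log2 ratio of FASN to SCD was 1.90 ± 0.525 in cartilage and 2.67 ± 0.0901 in labrum (SD, n = 5 each). The difference of 0.77 is 1.71-fold (exact permutation p = 0.00794, adjusted p = 0.0265). It was 0.66 to 0.93 with any one library left out. The adjusted p passed without each cartilage library and was 0.0661 to 0.0794 without each labrum library (exact permutation test).

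ADIPOQ was higher in labrum relative to both synthesis genes. There were 1.9, 3.12, 2.36, 1.85 and 1.53 ADIPOQ counts per 100 FASN counts in the cartilage libraries and 3.75, 5.16, 3.17, 3.73 and 3.29 in the labrum libraries. The tissues did not overlap, although cartilage replicate 2 came close to labrum replicate 3. The log2 ratio of FASN to ADIPOQ was lower in labrum, with a difference of -0.85 (exact permutation p = 0.00794, adjusted p = 0.0265). For SCD to ADIPOQ the difference was -1.62, with the same p-values and again no overlap. Both lost the adjusted call without labrum replicate 1, 2 or 5 (exact permutation adjusted p = 0.0595).

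LPL was higher in labrum relative to SCD. For each 100 LPL counts there were 261, 302, 116, 841 and 831 SCD counts in the cartilage libraries and 45.2, 72.6, 127, 47.5 and 71 in the labrum libraries. Cartilage replicate 3 and labrum replicate 3 overlapped. The difference in the log2 ratio of SCD to LPL was -2.43 (exact permutation p = 0.0159, adjusted p = 0.0317), and without labrum replicate 1, 2 or 5 the adjusted p was 0.0595. The ratio of LPL to ADIPOQ, both higher in labrum, differed by 0.81 and did not pass (exact permutation p = 0.127, adjusted p = 0.159).

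FABP4 was lower in labrum only relative to LPL and to ADIPOQ, which were themselves higher there. Its own log2 ratio of means between tissues was -0.05. FABP4 did not pass the filter, and its ratios rest on counts as low as 3, in labrum replicate 3. The log2 ratio of LPL to FABP4 was 3.40 ± 0.857 in cartilage and 5.70 ± 0.854 in labrum (SD, n = 5 each). Its exact permutation p was 0.0159 and its adjusted p 0.0317. The log2 ratio of FABP4 to ADIPOQ differed by -1.50 (exact permutation p = 0.0317, adjusted p = 0.0454). The call for LPL to FABP4 was lost without labrum replicate 1, 2 or 5 (exact permutation adjusted p = 0.0595). That for FABP4 to ADIPOQ was lost without cartilage replicate 1, 2, 3 or 5 or labrum replicate 1, 2, 3 or 5 (exact permutation adjusted p up to 0.0907). FASN to LPL differed by -1.66 (exact permutation p = 0.0238, adjusted p = 0.0397), and that call was lost without cartilage replicate 2 or 5 or labrum replicate 1, 2, 4 or 5 (exact permutation adjusted p up to 0.0794). FABP4 against FASN and against SCD did not pass (exact permutation adjusted p = 0.291 and 0.825), so its place relative to the synthesis genes was not resolved at these counts.

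**Figure D4:**
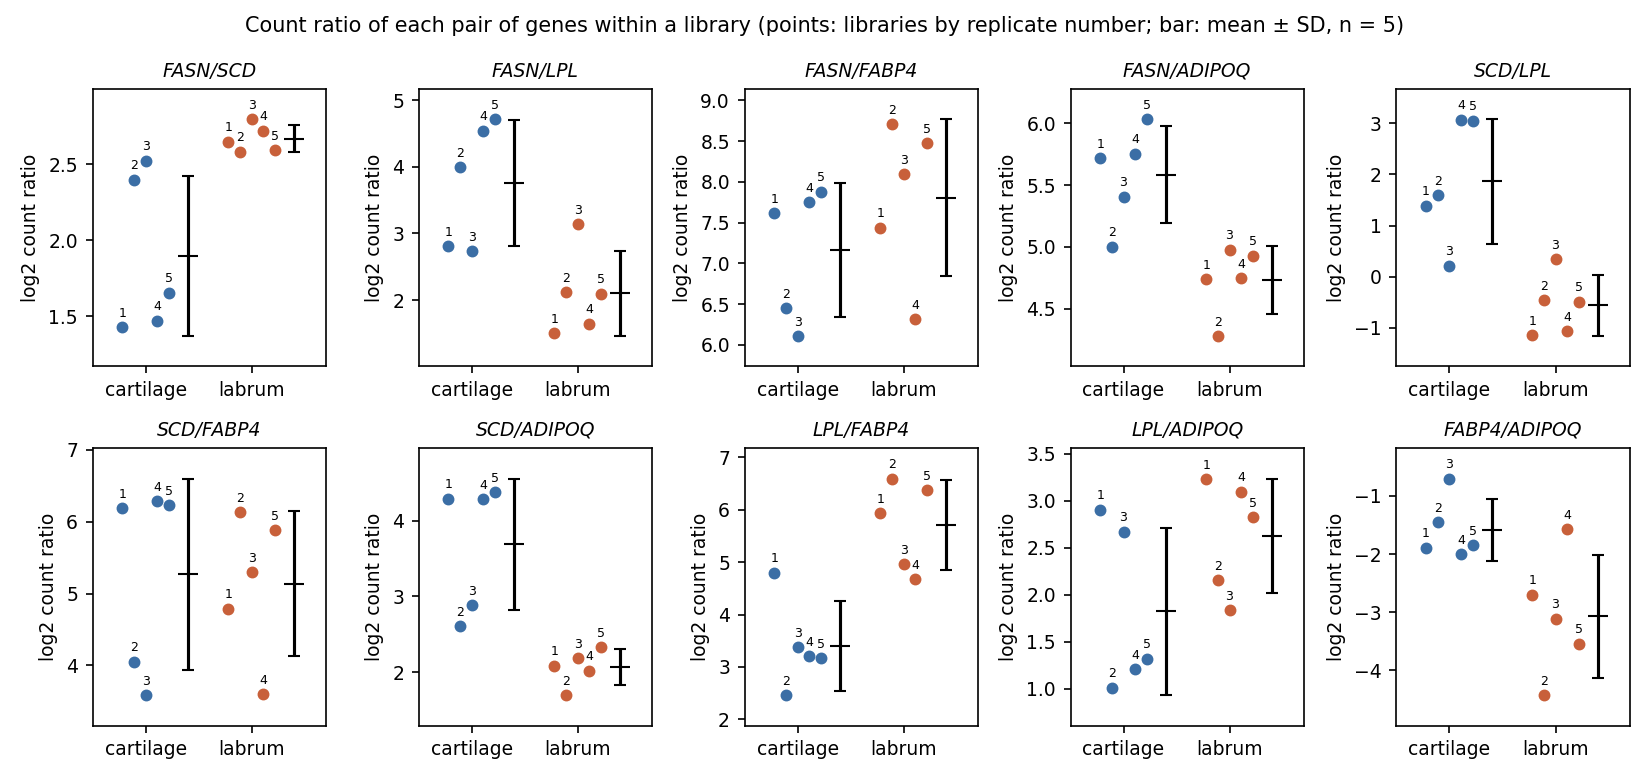
Log2 ratio of the counts of 2 genes within each library (vertical axes, each on its own scale) for the 10 pairs of genes with counts in every library; points are libraries with their replicate number, and black bars give mean ± SD (n = 5). FASN/SCD, FASN/ADIPOQ and SCD/ADIPOQ do not overlap between tissues, and the 5 labrum libraries are close together for FASN/SCD.

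Genes with the most similar profile were sought for each tested gene among 12225 genes with a mean of at least 1 CPM, by the root mean square difference of centred log2 CPM over the 10 libraries. FASN had the closest neighbour, at 0.118, followed by SCD at 0.165 and ADIPOQ at 0.172, while LPL at 0.302 and CD36 at 0.49 had none as near. The distance is not scaled to how much a gene varies, so it tends to be larger for genes with large differences. The order therefore does not show that the profiles of LPL and CD36 are unusual. Among genes higher in labrum the closest to any of the 5 were ENSBTAG00000023417 and ENSBTAG00000012235, at 0.135 and 0.136 from FASN. Their log2 fold changes were 0.54 and 0.50 (edgeR adjusted p = 0.0111 and 0.0446). Among genes lower in labrum the closest were ENSBTAG00000020898 and ENSBTAG00000017922, at 0.289 and 0.323 from SCD. They fell by 0.73 and 0.54 on the log2 scale (edgeR adjusted p = 0.0218 and 0.0307). These 4 identifiers could not be paired with names.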

How the data were processed

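The deposited files hold raw counts of reads for each gene in 1 table per library. STAR and featureCounts are named in the submitters' processing notes. Software versions, build, annotation, strandedness and the handling of multi-mapping reads are not stated there, so reads shared with related genes could be split or lost. The 7 genes, the lists and the tests were chosen with earlier results of these data known.

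Libraries were grouped by tissue from their titles. Pairs within a tissue differed by more than sampling noise (chi-square per degree of freedom of at least 13.1 in 20 pairs), so all were kept. The fit used edgeR 4.0.16 (R 4.3.3). The default filter left 12333 genes with 99.88% of counts. TMM scaling and a robust quasi-likelihood fit with tissue as the only term were used, with Benjamini-Hochberg adjustment at 0.05. The 95% interval of a fold change was derived from the F statistic and is not adjusted. The code was tested on simulated data. Alternatives were other scaling, other filters, limma 3.58.1 (voom), DESeq2 1.42.0, a replicate block and removal of each library. Named genes were the 7, plus at most 2 higher and 2 lower genes of similar profile (log2 CPM, prior count 2). The RefSeq table holds 0 Ensembl identifiers in 37063 entries, so the lists of pathway genes and cell type markers were not run, and no sequence or coordinate was used.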

Additional observations from a re-analysis of the deposited data

Results flagged for a closer look

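A single library stood far from the other 4 of its tissue in 4 of the 12 sets of CPM values examined, and in 0 of the 20 sets of ratios. The rule used flags about 1 in 20 sets of normally distributed values. The CPM sets were on a linear scale, whereas the ratio sets were on a log2 scale and left out CD36. All sets share the same 10 libraries. The shares can therefore not be set against each other or against 1 in 20. CD36 in cartilage replicate 1 was at 3.1 CPM, and the next cartilage library at 0.151 CPM. LPL in labrum replicate 3 was at 19.9 CPM, below the next at 41.6 CPM. FABP4 in labrum replicate 4 was at 1.92 CPM, above the next at 0.681 CPM. ADIPOQ in labrum replicate 2 was at 9.54 CPM, above the next at 5.86 CPM.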

How the results depend on the processing

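LPL, CD36 and ADIPOQ were higher in labrum in every alternative run. FASN passed the threshold with library totals alone (log2 fold change 0.69), with DESeq2 (0.44), and without cartilage replicate 5 or labrum replicate 1. SCD passed, lower in labrum, without cartilage replicate 3, which made 1 gene lower; the cause was not tested. With a library left out, log2 fold changes were 0.28 to 0.54 for FASN, -0.70 to -0.31 for SCD, 1.91 to 2.39 for LPL, 4.55 to 8.31 for CD36, 1.08 to 1.48 for ADIPOQ and -0.61 to 0.19 for the ratio of means of FABP4. Genes higher and lower numbered 3577 to 3964 and 3554 to 3882, and of the 7 genes 3 to 4 were higher and 0 to 1 lower. With library totals alone 5154 genes were higher and 2588 lower. The pooled CD36 ratio ran from 24.9 to 397. With a library left out there were 100 pair ratios, including those of pairs never called. Among the ratios of the 7 called pairs, 31 lost their call. SCD to FABP4, never called, had a range of -0.55 to 0.26. It turned from -0.13 to 0.10, 0.13, 0.11 and 0.26 without cartilage replicate 1, 4 or 5 or labrum replicate 4. Removing libraries for the pairs and for the pooled ratio was chosen after seeing the data. With the replicate number as a block, log2 fold changes were 0.44 for FASN and -0.37 for SCD, and no call among the 5 genes changed. For the pairs, an exact sign-flip test over same-numbered libraries, added after seeing the data, has a smallest p of 0.0625 (0.156 adjusted), so 0 pairs passed. Over all genes the block gave 7608 calls against 7738. Deviations of same-numbered libraries correlated at 0.0913 to 0.253, and the best match of 8 libraries out of 10 bore the same number, a hint from the data and not the design. FABP4 could be tested only without the filter, and LEP, with 0 counts, in no setting. The part of depth in the low counts of both was not tested.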
